A study of Mus musculus with 18 samples.

Results

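The genes described here are the 9 liver genes of glycogen synthesis and breakdown Gys2, Pygl, Ppp1r3b, Ppp1r3c, Ppp1r3g, Gbe1, Ugp2, Phka2 and Gyg. They were taken from a list of symbols, each was matched to 1 Ensembl identifier, and they are 9 of the 28030 genes in the table. All 9 passed the filter on low counts, Ppp1r3g only through its 24 h groups. RNA was sequenced from hepatocytes of wild-type C57BL/6J male mice aged 12 weeks, kept on normal chow. Digitonin, a detergent perfused into the liver from one side, was used to obtain cells from the pericentral zone, around the central vein, or from the periportal zone, around the portal vein. Before the experiment all mice were trained for 3 days on a daily cycle of 16 h without food and 8 h of feeding, with 20% sucrose in the drinking water. The sample labels give 4 h of refeeding for all 6 groups. In the fed groups, livers were taken after these 4 h of feeding, at clock hour 13. The 8 h fasted groups were taken at clock hour 21 and the 24 h fasted groups at clock hour 13. The 6 groups (2 zones and 3 states) held 3 libraries each, 18 in all. The clock hour of the 8 h groups differed from that of the fed and 24 h groups, so that a change with fasting at 8 h and a change with the time of day cannot be told apart. Because each library is a bulk sample, fewer cells with a transcript and less transcript per cell cannot be told apart.

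Glycogen is the branched glucose polymer in which the liver stores sugar after a meal and from which it releases glucose between meals. UDP-glucose, made by the Ugp2 product UDP-glucose pyrophosphorylase, is added to a primer on glycogenin (Gyg) by liver glycogen synthase (Gys2), and the branching enzyme (Gbe1) introduces the branch points. Liver glycogen phosphorylase (Pygl) removes glucose units, and it is switched on by phosphorylase kinase, of which Phka2 encodes the liver form of a regulatory subunit. Protein phosphatase 1 opposes this: glycogen-targeting subunits (Ppp1r3b, Ppp1r3c and Ppp1r3g) bring it to the particle, where it activates synthase and inactivates phosphorylase. These proteins are controlled mainly by phosphorylation and by metabolites, and the data here are of transcripts.

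In the mouse genome build mm10 with the GENCODE M21 annotation, all 9 are protein-coding genes. The genes of synthesis were Gys2 at chr6:142422613-142473109 (minus strand), Gbe1 at chr16:70313949-70569716 (plus), Ugp2 at chr11:21321138-21371201 (minus) and Gyg at chr3:20122084-20155317 (minus). Those of breakdown were Pygl at chr12:70190811-70231488 (minus) and Phka2 at chrX:160502166-160598878 (plus). The phosphatase subunits were Ppp1r3b at chr8:35375739-35388139 (plus), Ppp1r3c at chr19:36731731-36736653 (minus) and Ppp1r3g at chr13:35958839-35970388 (plus). A gene on the opposite strand overlapped 5 of them: Gm45469 overlapped Ppp1r3b, Gm12043 overlapped Ugp2, F730035M05Rik overlapped Pygl, Gm30127 overlapped Ppp1r3g and Gm15243 overlapped Phka2. These overlaps are of whole gene spans, introns included, and the overlap of exons was not measured. Reads from exon bases that such a pair shares cannot be told apart unless the counting used strand, which is not given in the sources used here.

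Promoter sequence is shown for the 3 genes with the largest fasting changes for which the RefSeq table (build GRCm38.p6) held a window. The table matched 7 of the 9 genes and gives 250 bases before to 50 after each start. The windows were searched on both strands for the cAMP response element TGACGTCA, its half-site TGACG, which reads CGTCA on the other strand, the FOXO site GTAAACA, which reads TGTTTAC there, and the E-box CACGTG. Capitals below mark the matches, each line reads 5′ to 3′ on the strand of the gene, and the stretches end at the base ahead of the first exon at the RefSeq start and hold no annotated exon of their gene. For Pygl and Ppp1r3g the annotation also holds a transcript that begins farther upstream, so these stretches lie in an intron of it. The 30 bases around the Ppp1r3g match lie in that gene's annotated exon.
Ppp1r3c, chr19:36736654-36736854, minus strand: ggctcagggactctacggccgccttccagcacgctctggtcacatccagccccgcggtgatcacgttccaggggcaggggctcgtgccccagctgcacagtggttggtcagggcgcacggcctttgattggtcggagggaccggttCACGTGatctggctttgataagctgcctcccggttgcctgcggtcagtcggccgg
Ppp1r3g, chr13:35967656-35967852, plus strand: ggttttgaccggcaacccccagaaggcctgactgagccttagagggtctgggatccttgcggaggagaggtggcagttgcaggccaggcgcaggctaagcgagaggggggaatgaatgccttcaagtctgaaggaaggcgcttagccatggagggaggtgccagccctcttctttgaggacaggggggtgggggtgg
Ppp1r3g, chr13:35967854-35967883, plus strand: gcgggaggacctTGACGtgctctagtgcta
Pygl, chr12:70227684-70227933, minus strand: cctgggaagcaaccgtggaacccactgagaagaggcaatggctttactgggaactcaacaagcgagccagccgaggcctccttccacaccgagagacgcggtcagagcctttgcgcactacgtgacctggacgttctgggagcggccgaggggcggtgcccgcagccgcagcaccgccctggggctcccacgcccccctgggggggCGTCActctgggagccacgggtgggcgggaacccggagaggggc
The Ppp1r3c window held the E-box 104 bases before the start, at offset -104, which 7.15% of the 32851 promoter windows also hold. Ppp1r3g and Pygl each held the half-site, at offsets -40 and -44, and 20.8% of all windows do. The full cAMP response element (in 1.79% of all windows) and the FOXO site (in 3.65%) were in none of the windows of the matched genes. In the Gyg window the E-box and the half-site lay just after the start, at offsets 8 and 12, and overlapped by 2 bases. A match describes the letters of these windows only.

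Values are given in CPM, counts scaled to a common library size with TMM factors that correct for library composition. They depend on transcript length, so each gene is compared with itself across samples and not with other genes. Total estimated counts were 1.84e+07 to 2.64e+07 per library. Differences are log2 fold changes ± SE from the quasi-likelihood test of edgeR, and a gene is called higher or lower where the p adjusted over all 12477 genes tested was under 0.05. The labels do not say that the 3 libraries of a group came from separate mice, so the p-values measure the spread between these libraries, which may be technical. The summed CPM of 4 pericentral markers was 9305 to 18314 in pericentral and 420.0 to 2044 in periportal libraries, and that of 4 periportal markers was 278 to 1793 and 3134 to 5413. The defining markers of the labelled cells were therefore present. The library of pericentral 24 h replicate 2 stood apart within its group: the pericentral marker Glul was at 111 CPM against 928 and 707 CPM in the other two, and the periportal marker Sds at 215 CPM against 101 and 94.8 CPM. Values without it are given beside many of the members' results of the 24 h state. They are not given for other pathway genes or for zone differences averaged over the states.

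Across the course of fasting, the 9 genes did not move as a block. In the pericentral zone 1 of 9 was called higher and 1 lower at 8 h, where 7.27% of all genes tested were called higher and 6.57% lower. At 24 h 1 was higher and 3 were lower there (10.8% and 11.1% of all genes). In the periportal zone 1 was called higher and 1 lower at 8 h (7.56% and 6.85% of all genes), and 1 higher and 2 lower at 24 h (9.59% and 10%). From 8 h to 24 h, 2 were higher and 2 lower in pericentral libraries (5.2% and 4.51% of all genes), and 2 higher and 3 lower in periportal libraries (3.22% and 4.24%). Averaged over the zones, 1 was higher and 2 were lower at 8 h (13.8% and 12.5% of all genes), and 1 was higher and 5 were lower at 24 h (17% and 17.5%). The member higher than fed at 24 h was Ppp1r3g each time, and it was also 1 of the 2 higher from 8 h to 24 h, beside Gys2. It passed the filter only through its 24 h groups, so nothing is read from these counts of higher members against the share of all genes.

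The libraries of the compared states did not overlap for 5 of the 9 genes at 8 h and for 5 at 24 h in pericentral cells, beside 32.2% and 38.7% of all genes. In periportal cells this was so for 2 at 8 h and for 5 at 24 h (31.6% and 36.9% of all genes). From 8 h to 24 h it was so for 6 members in pericentral cells (28.9% of all genes) and for 5 in periportal cells (25.4%). Ppp1r3g was among the members without overlap in every one of these counts that uses the 24 h state. It passed the filter only through its 24 h groups, so nothing is read from those counts against the share of all genes. The members' median log2 difference from fed at 24 h was -0.55 in pericentral and -0.61 in periportal cells, beside 0.01 and -0.00 over all genes tested.

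**Figure D1:**
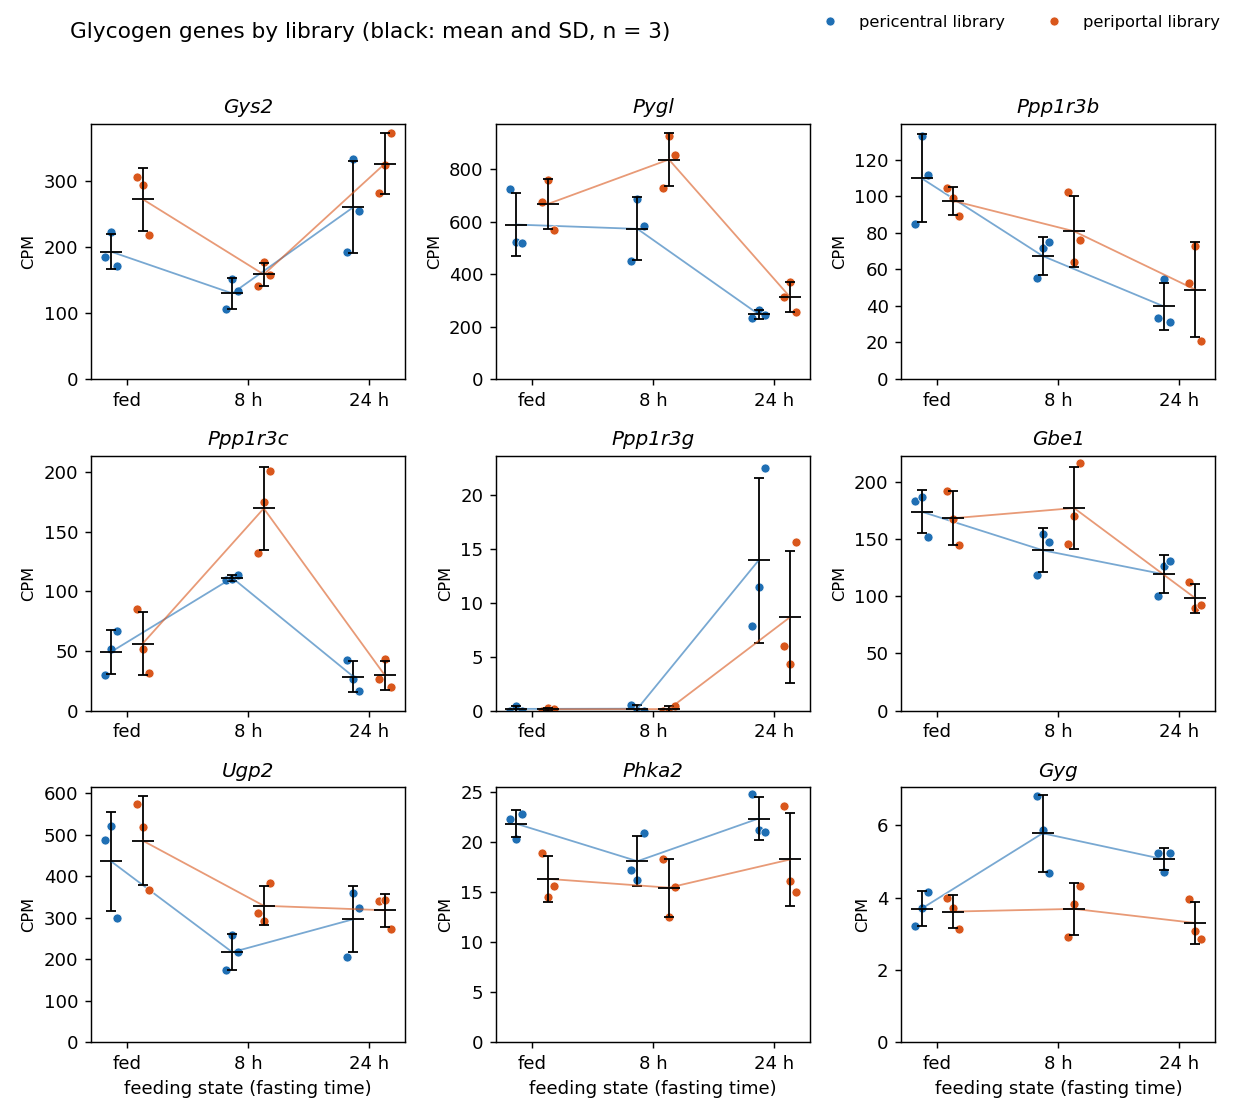
Level of the 9 glycogen genes in each library, in CPM, with 1 panel per gene and its own linear axis from 0; coloured points are libraries, black marks are the mean and SD of each group of 3, and lines join the means. Ppp1r3c peaks at 8 h in both zones, Ppp1r3g is near 0 until 24 h, and Pygl is lowest at 24 h.

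The 3 targeting subunits of protein phosphatase 1 followed 3 different courses. Ppp1r3c, also known as protein targeting to glycogen, was highest at 8 h. In pericentral cells it stood at 29.6, 51.7 and 66.5 CPM fed, 109.6, 110.2 and 114 CPM after 8 h, then 42.5, 26.6 and 16.3 CPM after 24 h. In periportal cells the libraries read 84.8, 51.9 and 31.8 CPM fed, 132, 175 and 201 CPM after 8 h, then 26.1, 43.1 and 19.6 CPM after 24 h. In both zones every 8 h library was above every fed and every 24 h library.

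The rise of Ppp1r3c from fed to 8 h was 1.59 ± 0.42 in periportal cells (3.02-fold, adjusted p = 0.0205, edgeR). In pericentral cells the difference was 1.18 ± 0.41 (adjusted p = 0.0781), which missed the threshold although the groups did not overlap, and passed it with DESeq2 (adjusted p = 0.038). The mean over both zones rose by 1.38 ± 0.29 (adjusted p = 0.00306). From 8 h to 24 h it fell in both zones, with differences of -1.96 ± 0.42 in pericentral cells (adjusted p = 0.0118) and -2.51 ± 0.43 in periportal cells (adjusted p = 0.00419). At 24 h the level was then under the fed one by a mean log2 difference of -0.85 ± 0.29 over both zones (adjusted p = 0.0372), while the zones on their own gave -0.79 ± 0.42 (adjusted p = 0.202) and -0.92 ± 0.42 (adjusted p = 0.144). Single libraries decided several of these calls. The periportal rise lost its call without fed replicate 2 (1.54) or 3 (1.31) or 8 h replicate 2 (1.57) or 3 (1.45), and the pericentral fall from 8 h to 24 h without 24 h replicate 3 (-1.69). The averaged difference of 24 h from fed lost its call, at values of -0.89 to -0.64, without any 1 of 8 libraries: replicates 2 and 3 of the pericentral fed and of the pericentral 24 h group, replicates 1 and 2 of the periportal fed group, and replicates 1 and 3 of the periportal 24 h group.

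Ppp1r3g, a targeting subunit described in liver as responsive to fasting, was at the edge of detection until the 24 h fast. Of the 12 fed and 8 h libraries, 7 had a count of 0 after rounding and the others had 4 to 13 counts, with a highest level of 0.533 CPM. The 24 h libraries had 7.81, 11.5 and 22.5 CPM in pericentral cells and 5.98, 4.36 and 15.7 CPM in periportal cells, from 105 to 456 estimated counts. Thus the lowest 24 h library was 8.20-fold above the highest earlier one, and replicate 3 was the highest of its group in both zones. The fitted differences of 24 h from fed were 6.47 ± 1.16 in pericentral cells (adjusted p = 0.00147, edgeR) and 6.00 ± 1.19 in periportal cells (adjusted p = 0.00317). Against 8 h they were 6.23 ± 1.15 (adjusted p = 0.00526) and 5.98 ± 1.21 (adjusted p = 0.011). The size of these folds rests on a few counts in the earlier groups. Since the gene passed the expression filter through its 24 h groups, only a rise could have been tested.

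Ppp1r3b, which encodes the main targeting subunit of liver, was lower after 24 h. Its pericentral libraries were at 84.9, 133 and 112 CPM fed, 55.2, 71.6 and 75.2 CPM after 8 h, then 33.1, 54.7 and 31.4 CPM after 24 h. The periportal ones were at 105, 98.8 and 89.3 CPM fed, 102, 64.2 and 76.0 CPM after 8 h, then 52.8, 73.0 and 21.0 CPM after 24 h. No 24 h library reached the lowest fed library of its zone, and the periportal 24 h libraries were widely spread. From fed to 24 h the pericentral level fell (-1.46 ± 0.36, adjusted p = 0.00932), with a difference of -1.77 without the 24 h replicate 2 that stood apart. The periportal difference was -0.99 ± 0.35 (adjusted p = 0.0628), and it passed the threshold without 24 h replicate 2 (-1.41, adjusted p = 0.0188), with DESeq2 (-0.99, adjusted p = 0.0123) and with limma-voom (-1.17, adjusted p = 0.0378). Averaged over the zones the fall was 1.23 ± 0.25 (log2 fold change -1.23, adjusted p = 0.00167), to 0.426 of the fed level. At 8 h neither zone was called, with differences of -0.71 ± 0.35 (adjusted p = 0.217) and -0.27 ± 0.35 (adjusted p = 0.68). The pericentral fed and 8 h libraries did not overlap, and this difference passed with only the groups compared in the fit (-0.70, adjusted p = 0.0334). The averaged 8 h difference was -0.49 ± 0.25 (adjusted p = 0.169). It passed with only the groups compared (adjusted p = 0.0193) and without periportal 24 h replicate 3 (adjusted p = 0.0404).

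**Figure D2:**
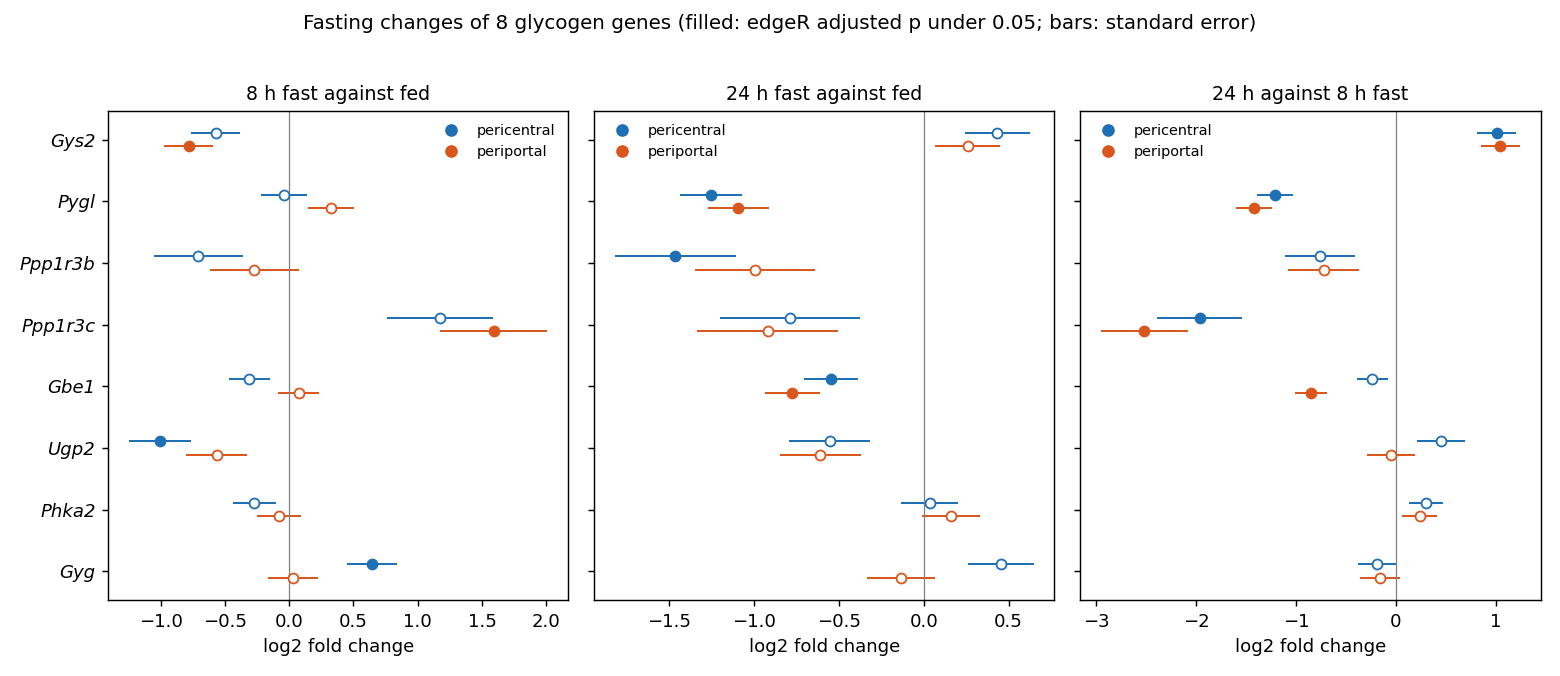
Log2 fold change between feeding states (8 h against fed, 24 h against fed and 24 h against 8 h) for 8 of the 9 genes, without Ppp1r3g, pericentral and periportal zones in different colours; points are the edgeR estimates, bars are ± SE, and filled points are those called at adjusted p under 0.05. Ppp1r3c lies above 0 at 8 h, Pygl, Ppp1r3b and Gbe1 lie below 0 at 24 h, and Gys2 lies above 0 from 8 h to 24 h.

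Among the genes of synthesis, Gys2 was lowest at 8 h and rose again by 24 h. Pericentral libraries were at 185, 222 and 171 CPM fed, at 105, 151 and 132 CPM after 8 h, then 193, 332 and 255 CPM after 24 h. Periportal libraries were at 306, 293 and 217 CPM fed, at 141, 176 and 157 CPM after 8 h, then 281, 324 and 372 CPM after 24 h. In each zone the 8 h libraries lay below all fed and all 24 h libraries. The fall from fed to 8 h was 0.78 ± 0.19 on the log2 scale in periportal cells (log2 fold change -0.78, adjusted p = 0.0116), a call that was lost without fed replicate 1 (-0.69). In pericentral cells the same difference was -0.57 ± 0.19 (adjusted p = 0.0583) and passed the threshold without periportal fed replicate 3 or pericentral 24 h replicate 1 or 2, at -0.57 each time, and with DESeq2 (adjusted p = 0.0236) and limma-voom (adjusted p = 0.0483). Over both zones the level fell by 0.68 ± 0.14 (log2 fold change -0.68, adjusted p = 0.00132).

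The return of Gys2 from 8 h to 24 h was 1.01 ± 0.19 in pericentral cells (2.01-fold, adjusted p = 0.00441) and 1.04 ± 0.19 in periportal cells (2.06-fold, adjusted p = 0.00427). Without pericentral 24 h replicate 2, the pericentral rise was 0.79 (adjusted p = 0.0231). Compared with the fed state the 24 h level differed by 0.43 ± 0.19 (adjusted p = 0.12) and 0.26 ± 0.19 (adjusted p = 0.383), neither of which was called. The pericentral value was 0.60 and called without 24 h replicate 1 (adjusted p = 0.0378), and was 0.21 without replicate 2 (adjusted p = 0.49). Averaged over the zones it was 0.35 ± 0.14 (adjusted p = 0.0574), and it passed the threshold without replicate 1 of the pericentral (0.43) or the periportal (0.39) 24 h group or without pericentral fed replicate 2 (0.40), and with DESeq2 (adjusted p = 0.0365). Without pericentral 24 h replicate 2 the averaged difference was 0.24 (adjusted p = 0.174).

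Ugp2 was highest in fed cells. In pericentral cells it was at 487, 520.3 and 300.3 CPM fed, at 173, 259.7 and 219 CPM after 8 h, then 207, 359.8 and 323 CPM after 24 h. In periportal cells it was at 574, 518 and 366 CPM fed, 311, 293 and 383 CPM after 8 h, then 339, 343 and 272 CPM after 24 h. The fed libraries of both zones included 1, replicate 3, that was well under the other two. In pericentral cells the level fell by 1.01 ± 0.24 at 8 h (log2 fold change -1.01, adjusted p = 0.00971), and the later difference from fed was -0.56 ± 0.24 (adjusted p = 0.11). The periportal differences were -0.56 ± 0.24 at 8 h (adjusted p = 0.133) and -0.61 ± 0.24 at 24 h (adjusted p = 0.085). Without the fed replicate 3 of the zone, the 24 h differences were -0.77 (adjusted p = 0.0339) and -0.78 (adjusted p = 0.0417) and passed the threshold. Averaged over the zones, Ugp2 fell by 0.78 ± 0.17 at 8 h (log2 fold change -0.78, adjusted p = 0.0025) and by 0.58 ± 0.17 at 24 h (log2 fold change -0.58, adjusted p = 0.0133).

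Gbe1, the branching enzyme, was not called at 8 h and was lower at 24 h. Pericentral levels were 184, 187 and 152 CPM fed, 119, 155 and 148 CPM after 8 h, then 100.2, 127 and 131 CPM after 24 h. Periportal levels were 192, 168 and 145 CPM fed, 145, 170.0 and 217 CPM after 8 h, then 113, 90.2 and 92.3 CPM after 24 h. All 24 h libraries lay below all fed libraries of their zone. The averaged difference was -0.12 ± 0.11 at 8 h (adjusted p = 0.497) and -0.66 ± 0.11 at 24 h (adjusted p = 0.000268). By zone, the 24 h fall from fed was -0.55 ± 0.16 in pericentral cells (adjusted p = 0.0221) and -0.77 ± 0.16 in periportal cells (adjusted p = 0.00285). The pericentral call was lost without fed replicate 1 (-0.51) or 2 (-0.50) or 24 h replicate 1 (-0.45). Between 8 h and 24 h the periportal level fell by 0.85 ± 0.16 (log2 fold change -0.85, adjusted p = 0.00486).

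Gyg, which encodes the glycogenin primer, was the least counted member after Ppp1r3g, with 62 to 166 estimated counts per library. In pericentral cells it rose from 3.21, 3.70 and 4.17 CPM fed to 6.80, 5.86 and 4.68 CPM at 8 h, and stood at 5.24, 4.71 and 5.24 CPM at 24 h. The periportal libraries were at 4.00, 3.72 and 3.12 CPM fed, 2.91, 3.82 and 4.33 CPM after 8 h, then 3.97, 3.08 and 2.85 CPM after 24 h, so their states overlapped. The pericentral rise at 8 h was 0.65 ± 0.19 (1.56-fold, adjusted p = 0.0333), and the 24 h difference was 0.45 ± 0.19 (adjusted p = 0.106). The 8 h call was lost without fed replicate 1 (0.56) or 2 (0.66) and without 8 h replicate 1 (0.51) or 2 (0.65).

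On the side of breakdown, Pygl fell by 24 h in both zones, with no call at 8 h. The fed pericentral libraries were at 726, 523 and 517 CPM, those at 8 h at 448, 688 and 582 CPM, and those at 24 h at 232, 265 and 245 CPM. In periportal cells the values were 677, 758 and 569 CPM fed, 730.4, 928 and 853 CPM after 8 h, then 313, 369 and 257 CPM after 24 h. The highest 24 h library of either zone was under the lowest of the fed and 8 h libraries. At 24 h the level was 0.419 of fed in pericentral cells (log2 fold change -1.25 ± 0.18, adjusted p = 0.000139) and 0.469 of fed in periportal cells (-1.09 ± 0.18, adjusted p = 0.000525). Averaged over the zones the difference was -1.17 ± 0.13 (adjusted p = 3.27e-06). From 8 h to 24 h it was -1.21 ± 0.18 (adjusted p = 0.000751) and -1.42 ± 0.18 (adjusted p = 0.00036). From fed to 8 h the averaged difference was 0.14 ± 0.13 (adjusted p = 0.457). Leaving out the pericentral 24 h library that stood apart gave -1.31 for the pericentral difference of 24 h from fed. Without the same library, the pericentral differences of 24 h from fed for Ppp1r3g, Gbe1 and Ugp2 were 6.59, -0.59 and -0.72, and Ppp1r3c changed by -1.92 from 8 h to 24 h (adjusted p = 0.0481), each on the same side of the threshold as with it. From 8 h to 24 h in pericentral cells, Pygl then differed by -1.27 (adjusted p = 0.0042) and Ppp1r3g by 6.35 (adjusted p = 0.0132). The averaged differences of 24 h from fed were then -1.20 for Pygl, -1.38 for Ppp1r3b, 6.30 for Ppp1r3g, -0.68 for Gbe1 and -0.67 for Ugp2, all called. Those of Ppp1r3c and Gyg in pericentral cells were -0.74 and 0.50, again not called. Phka2, the phosphorylase kinase subunit, was called in none of the fasting contrasts, and its 18 libraries lay between 12.5 and 24.8 CPM.

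The order of the group means was as follows, and neighbours in it overlapped unless stated. Gys2 ran upward from pericentral 8 h through periportal 8 h, pericentral fed, pericentral 24 h and periportal fed to periportal 24 h. Pygl ran from pericentral 24 h and periportal 24 h, after a gap without overlap, through pericentral 8 h, pericentral fed and periportal fed to periportal 8 h. For Ppp1r3c, both 24 h groups and both fed groups were followed without overlap by pericentral 8 h (111 ± 2.31 CPM, SD, n = 3) and again without overlap by periportal 8 h (169 ± 34.7 CPM, SD, n = 3). For Ppp1r3g the fed and 8 h groups were separate from periportal 24 h (8.67 ± 6.12 CPM, SD, n = 3) and pericentral 24 h (13.9 ± 7.67 CPM, SD, n = 3), which overlapped. Gyg had its one gap below pericentral 24 h and pericentral 8 h, its highest groups. Ppp1r3b ran from the 24 h groups through the 8 h groups to the fed groups, Gbe1 from the 24 h groups to periportal 8 h, Ugp2 from pericentral 8 h to periportal fed, and Phka2 from periportal 8 h to pericentral 24 h, all without a gap.

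Between the zones, the averaged log2 differences of the called members lay between -0.43 and 0.37. Within a single state 0 of the 9 members were called: not in fed cells, where 8.01% of all genes were called, not at 8 h (7.14%) and not at 24 h (4.17%). At an unadjusted p under 0.05, edgeR gave 2, 3 and 1 members in these states. DESeq2 called 0, 2 (Pygl and Gyg) and 0, and limma-voom 0, 1 (Gyg) and 0. Averaged over the 3 states, edgeR called 2 members higher and 2 lower in periportal cells, where 10.3% and 9.96% of all genes were.

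The zones did not overlap for 1 of the 9 genes in fed cells (28.3% of all genes), for 4 at 8 h (23.9%) and for 1 at 24 h (22.1%). Gys2 was higher in periportal cells by 0.37 ± 0.11 on average (1.29-fold, adjusted p = 0.0246), from 0.50 ± 0.19 fed (adjusted p = 0.136), 0.29 ± 0.19 at 8 h (adjusted p = 0.433) and 0.33 ± 0.19 at 24 h (adjusted p = 0.421). This averaged call was lost, with values of 0.32 to 0.35, without any 1 of 6 libraries: pericentral fed replicate 3 and 8 h replicate 1, and periportal fed replicates 1 and 2, 8 h replicate 2 and 24 h replicate 3. Without pericentral 24 h replicate 2 the 24 h difference was 0.54 (adjusted p = 0.165). Pygl was higher in periportal cells by 0.36 ± 0.10 (1.28-fold, adjusted p = 0.0205). Its difference was 0.18 ± 0.18 in fed cells, where the zones overlapped (adjusted p = 0.635), 0.55 ± 0.18 at 8 h, where the zones did not overlap (adjusted p = 0.0758), and 0.34 ± 0.18 at 24 h (adjusted p = 0.352).

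Averaged over the 3 states, Phka2 and Gyg were lower in periportal cells. The fed libraries of Phka2 were at 22.3, 20.3 and 22.8 CPM in pericentral and at 18.9, 14.5 and 15.5 CPM in periportal cells, without overlap. Its averaged difference was -0.31 ± 0.10 (adjusted p = 0.0309), from -0.42 ± 0.17 fed (adjusted p = 0.158), -0.23 ± 0.17 at 8 h (adjusted p = 0.497) and -0.30 ± 0.17 at 24 h (adjusted p = 0.407). The averaged call was lost, with values of -0.32 to -0.27, without any 1 of 8 libraries: pericentral fed replicate 3, 8 h replicate 3 and 24 h replicate 1, and periportal fed replicate 2 and replicates 2 and 3 of the 8 h and of the 24 h group. Gyg was lower by 0.43 on the averaged log2 scale (-0.43 ± 0.11, adjusted p = 0.0108). In the fed state its difference was near 0 and its libraries overlapped between the zones (-0.03 ± 0.20, adjusted p = 0.954). They did not overlap at 8 h (-0.65 ± 0.19, adjusted p = 0.0534) or at 24 h (-0.62 ± 0.20, adjusted p = 0.093). The 8 h difference passed the threshold without pericentral 8 h replicate 3 (-0.79, adjusted p = 0.0338) or periportal 24 h replicate 1 (-0.65, adjusted p = 0.0493), with DESeq2 (adjusted p = 0.0309) and with limma-voom (adjusted p = 0.0478). Without pericentral 24 h replicate 2, the 24 h differences of Gyg, Phka2, Pygl and Ppp1r3g between the zones were -0.67 (adjusted p = 0.128), -0.33, 0.39 and -0.80, none of them called.

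Ugp2 and Ppp1r3c were without overlap between the zones at 8 h and not called, with periportal differences of 0.60 ± 0.24 (adjusted p = 0.153) and 0.61 ± 0.41 (adjusted p = 0.444). Gbe1 differed by 0.34 ± 0.16 at 8 h (adjusted p = 0.239) and the averaged Ugp2 difference was 0.29 ± 0.14 (adjusted p = 0.166). At 24 h the zones of Ppp1r3g differed by -0.68 ± 0.80 (adjusted p = 0.74), an error too wide to read a direction from in the main fit. Each periportal 24 h library was below the same-numbered pericentral one, but the labels do not say what a number marks. A fit of only the 24 h libraries with a term for this number, chosen after seeing the data, gave -0.75 ± 0.21. This was not called either (adjusted p = 0.125, edgeR). The hepatocyte markers Alb, Ttr, Apoa1 and Tat summed to 52325 to 92051 CPM in pericentral and 103694 to 179660 CPM in periportal libraries. Most of this sum was Alb, at 40028 to 79373 and 93000 to 159562 CPM. Ttr was at 3703 to 5466 and 3968 to 5557 CPM, and Apoa1 and Tat also overlapped between the zones. Other cell types were near 0 in both zones: 4 endothelial markers summed to at most 9.14 and 24.7 CPM, 4 Kupffer cell and leukocyte markers to 2.72 and 10.99 CPM, and 4 stellate cell markers to 4.89 and 14.0 CPM. The cholangiocyte list summed to 13.9 to 27.7 and 21.2 to 33.7 CPM, with Epcam at 0 in all libraries. The part of these markers in the zone results was not tested.

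**Figure D3:**
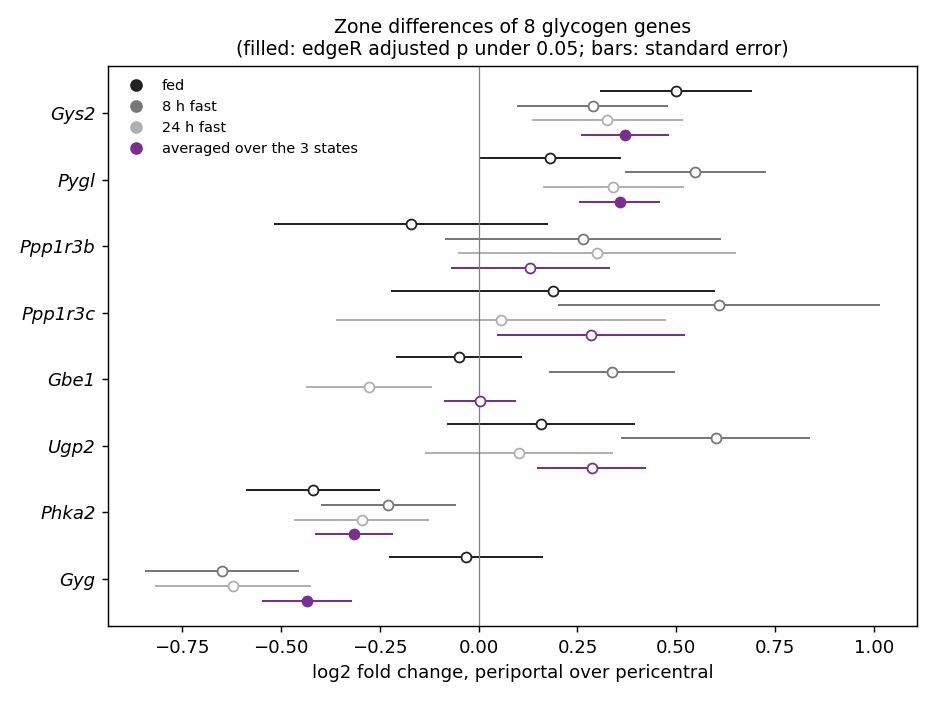
Log2 fold change, periportal over pericentral, of 8 of the 9 genes (without Ppp1r3g) in the fed, 8 h and 24 h states and averaged over the 3 states; points are edgeR estimates, bars are ± SE, and filled points are called at adjusted p under 0.05. Filled points are seen in the averaged contrast only: Gys2 and Pygl above 0, Phka2 and Gyg below 0.

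Whether the response to fasting differed between the zones was tested as an interaction. Of the 9 members, 0 were called for the change from fed to 8 h, from fed to 24 h or from 8 h to 24 h, where 0%, 0.016% and 0% of all genes were. At an unadjusted p under 0.05 edgeR gave 1 member in each, and DESeq2 and limma-voom called 0 in each. Those single members were Gyg, for which the zones drew apart from fed to 8 h by -0.62 ± 0.28 (adjusted p = 0.909) and from fed to 24 h by -0.59 ± 0.28 (adjusted p = 0.641), and Gbe1 from 8 h to 24 h at -0.61 ± 0.23 (adjusted p = 0.776). Without pericentral 24 h replicate 2 the values that use the 24 h state were -0.64 for Gyg and -0.57 for Gbe1. No member's response to fasting was thus shown to differ between the zones.

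Other genes of the pathway were taken from 6 lists of 34 genes, of which 30 were tested (Pygm, Phkg1, Ppp1r3a and Ppp1r3d were not). Averaged over the zones, 4 of the 30 were higher and 10 lower than fed at 8 h (13.8% and 12.5% of all genes), and at 24 h 5 were higher and 10 lower (17% and 17.5%). Of the 6 other glycogen enzymes tested, 1 was higher and 4 were lower at 8 h and 1 was higher and 3 were lower at 24 h. The muscle-type synthase Gys1, at 1.79 to 3.22 CPM in the group means, changed by -0.69 ± 0.18 and -0.74 ± 0.18 (adjusted p = 0.00713 and 0.00382). The lysosomal glucosidase Gaa was higher at 24 h by 0.43 ± 0.08 (adjusted p = 0.000605).

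Among 6 genes of phosphorylase kinase and calmodulin, 1 was lower at 8 h and 3 at 24 h, with Phkb, the shared beta subunit, at -0.31 ± 0.07 at 24 h (adjusted p = 0.0038). Of 5 further phosphatase subunits, 1 was higher and 1 lower at 8 h. Ppp1r3e, another targeting subunit, at 1.26 to 4.10 CPM over the libraries, fell by 0.78 ± 0.17 at 8 h (log2 fold change -0.78, adjusted p = 0.0025). From 8 h to 24 h Ppp1r3e was called higher again, by 1.08 in pericentral and 0.89 in periportal cells, calls that some alternatives lost. The catalytic subunit Ppp1cc was higher by 0.31 ± 0.07 and 0.39 ± 0.07 at 8 h and 24 h (adjusted p = 0.00374 and 0.000465). Nhlrc1, which encodes the ubiquitin ligase malin, changed by -1.41 ± 0.23 and -1.21 ± 0.23 (adjusted p = 0.000218 and 0.000598), from group means of 2.16 and 1.62 CPM fed. Of 5 kinases, 1 was higher at 8 h, and 2 were higher and 1 was lower at 24 h. Gsk3a, a kinase of glycogen synthase, was higher by 0.19 ± 0.05 and 0.34 ± 0.05 (adjusted p = 0.0129 and 0.000103), and Prkaca, a catalytic subunit of protein kinase A, was lower at 24 h (-0.33 ± 0.08, adjusted p = 0.00485). Prkacb, the other such subunit listed, was at 44.6, 46.6 and 39.5 CPM in pericentral fed libraries. At 24 h these cells had 58.6, 54.9 and 50.5 CPM. Its periportal fed (47.0, 45.5 and 47.8 CPM) and 24 h libraries (54.3, 45.2 and 47.6 CPM) overlapped.

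Of 5 genes that supply or release glucose 6-phosphate, 1 was higher and 2 were lower at each time. Glucose-6-phosphatase (G6pc), which frees glucose for export, was higher after both fasts, with differences of 1.71 ± 0.25 (8 h, adjusted p = 0.000115) and 1.97 ± 0.25 (24 h, adjusted p = 2.68e-05). Between zones, 6 of the 30 were higher and 3 lower in periportal cells on average (10.3% and 9.96% of all genes). These included G6pc (1.36 ± 0.20, adjusted p = 0.000162), the glucose transporter Slc2a2 (0.64 ± 0.11, adjusted p = 0.000556) and the brain-type phosphorylase Pygb (0.89 ± 0.18, adjusted p = 0.00189) among the higher. The level of Pygb was low, at 1.19 to 2.84 CPM in pericentral and 2.21 to 6.97 CPM in periportal libraries. Stbd1, which tethers glycogen to membranes, was lower (-0.68 ± 0.10, adjusted p = 9.85e-05), with a call in each state: -0.58, -0.65 and -0.82 in fed, 8 h and 24 h cells.

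**Figure D4:**
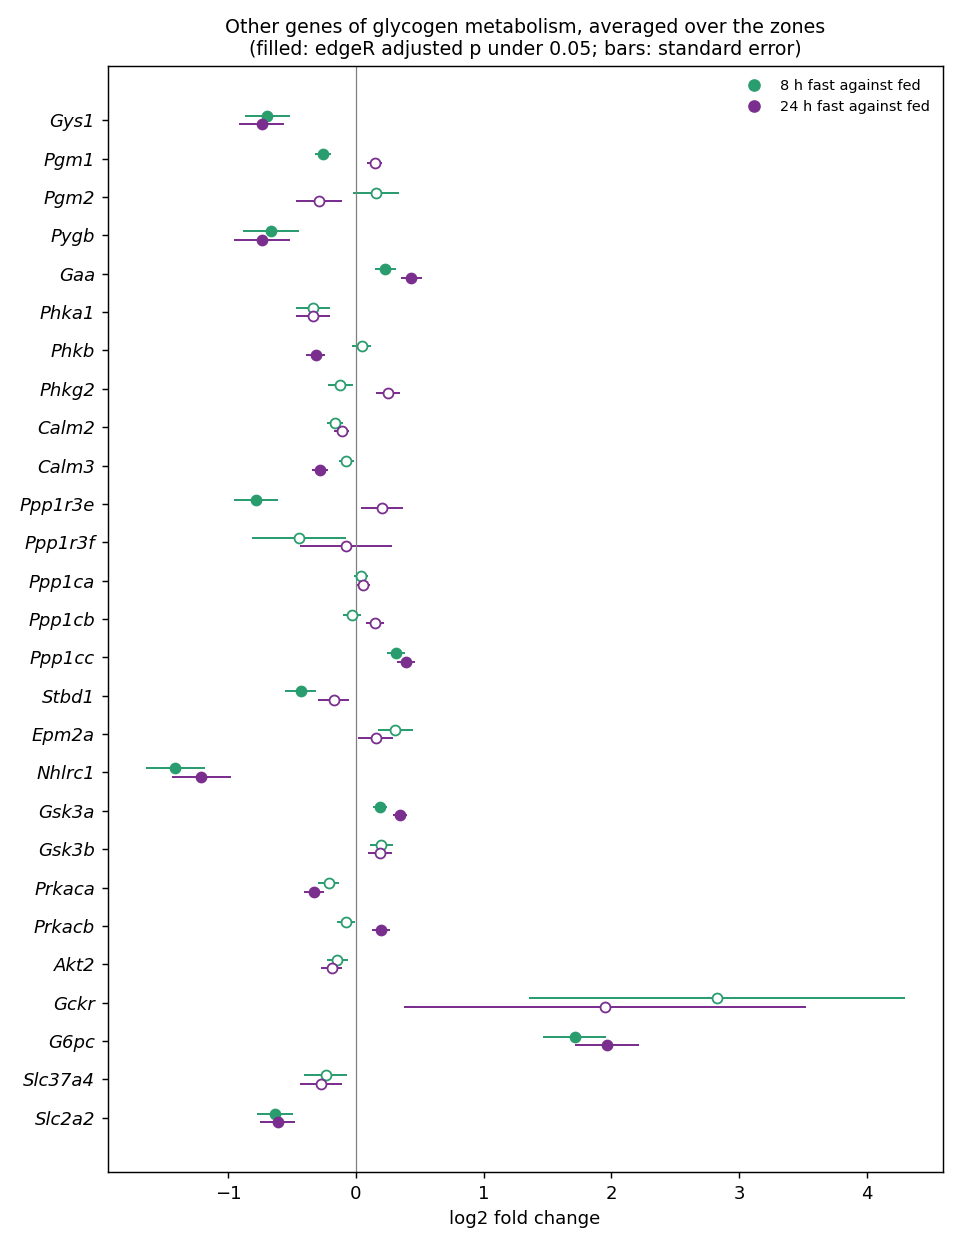
Log2 fold change from fed after 8 h and after 24 h of fasting, averaged over the zones, for other pathway genes that were tested, grouped by list; points are edgeR estimates, bars are ± SE, and filled points are called at adjusted p under 0.05. Among the called genes shown, Nhlrc1 lies farthest below 0 and G6pc farthest above 0.

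The genes whose levels were most like each member's were sought by the Pearson correlation of log2(CPM + 1) over the 18 libraries, among 6583 genes with a mean of at least 10 CPM. The points share zones and states, so r is a description. For Pygl they were Ergic1 (r = 0.958) and Tkfc (r = 0.950), and for Gys2 they were Aspa (r = 0.917) and Nampt (r = 0.910). Ppp1r3g was most like Tmed5 (r = 0.919) and Mcrip2 (r = 0.915), Ppp1r3b like Leap2 (r = 0.899) and Xpo1 (r = 0.874), and Ppp1r3c like Lgals9 and S100a10 (r = 0.882 each). Gbe1 was most like Ssr3 (r = 0.904) and Tkt (r = 0.884), Phka2 like Akr7a5 (r = 0.879) and Abcb6 (r = 0.867), and Ugp2 like Kpna3 (r = 0.854) and Cdc42 (r = 0.852). Gyg had the weakest matches, Abhd4 (r = 0.785) and Myh14 (r = 0.773).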

How the data were processed

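Total RNA from pericentral and periportal hepatocytes was sequenced in 18 libraries, 3 in each of 6 groups. The authors' deposited table gives estimated counts for Ensembl genes, made with kallisto 0.46.0 and mm10 per the submitters' processing notes. How transcripts were summed to genes, the annotation and the use of strand are not given in the sources used here. Estimated counts were rounded, and 12477 of 28030 genes passed filterByExpr on the 6 groups.

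One fit of edgeR 4.0.16 (R 4.3.3, TMM, robust quasi-likelihood F test) held all 18 libraries with 1 coefficient per group. It gave 15 contrasts, each adjusted by Benjamini-Hochberg over all genes tested, and SE is the log2 fold change divided by the square root of F. The 9 genes and the other lists were chosen with earlier results of these data known. All 9 members are named. Other pathway genes were named only where called, at most the 2 with the largest absolute log2 fold change per list and contrast, and for each member the 2 most similar genes. Prkacb was added beside Prkaca as the other catalytic subunit listed. Results of some listed genes are not reported here. The fit was tested on simulated data with large changes in genes of at least 10 CPM, for 24 h against fed in pericentral cells. That test does not bear on smaller changes or on genes as low as Gyg and Ppp1r3g. Alternatives were DESeq2 1.42.0 size factors and Wald test, limma-voom (limma 3.58.1), other filters and samples, a replicate block, and leaving out each library. Deviations from the group means at 24 h correlated weakly between same-numbered libraries of the zones (r = 0.121 to 0.165 over 3 pairs). Other pairs were at -0.121 to -0.0236. Deviations within a group balance out, so these values are not independent of those of the same-numbered pairs. Same-numbered pairs were at -0.0112 to 0.00674 in fed cells and at -0.008 to 0.0705 at 8 h. The labels do not say what a number marks. The main fit therefore held no replicate block, and the block was an alternative only. With total counts of 1.84e+07 to 2.64e+07 and 3 libraries per group, the precision is limited.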

Additional observations from a re-analysis of the deposited data

How the results depend on the processing

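Of the 135 differences (9 members in 15 contrasts), 33 were called, 0 of these changed sign, and 24 were called under every alternative run. Of the 102 not called, 12 were called under at least 1 alternative, and 35 changed sign, 9 of them of Ppp1r3g and the others of a size up to 0.30. The count of members called between zones at 8 h, 0 here, was 1 with a minimum mean of 1 CPM, 1 with TMM scaling without the 20 most abundant genes, 2 with the DESeq2 Wald test and 1 with limma-voom. At 8 h against fed in pericentral cells it was 2 here, 1 without a filter, 4 with only the groups compared in the fit and 4 with the DESeq2 Wald test. At 24 h against fed in periportal cells it was 3 here and 5 with the DESeq2 Wald test. The cause was not tested. Leaving out 1 library at a time gave 0 to 1 members between zones at 8 h and 2 to 4 averaged over the states, 1 to 3 at 8 h against fed in pericentral and 1 to 2 in periportal cells, and 0 in the other zone and interaction contrasts. It gave 3 to 5 (pericentral) and 3 to 4 (periportal) at 24 h against fed, 3 to 4 and 5 from 8 h to 24 h, and 3 to 4 and 5 to 7 averaged over the zones at 8 h and 24 h.

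Among single differences, Gyg at 8 h in pericentral cells lost its call without a filter (0.65) and with only the groups compared (0.65), and Ppp1r3c averaged at 24 h under the same settings (-0.86 and -0.85). Ppp1r3g from 8 h to 24 h in periportal cells lost its call with only the groups compared (5.99) and with limma-voom (7.05). Between the zones at 24 h, 0 members were called with the replicate block, as without it. A fit of only the 24 h libraries with the block, chosen after seeing the data, also gave 0 (Gyg -0.62, adjusted p = 0.168). Ppp1r3g was at -0.75 ± 0.21 in that fit (adjusted p = 0.125). In the fasting comparisons, whose libraries share only a number, the replicate block moved 3 calls: Gys2 at 8 h in pericentral cells (-0.58, adjusted p = 0.0248), Ppp1r3b at 24 h in periportal cells (-1.06, adjusted p = 0.0457) and Gys2 averaged at 24 h (0.34, adjusted p = 0.0312) were called, and among the reported differences no other call changed. Of 26 differences tracked for other pathway genes, 21 kept their call under every alternative. The exceptions were Gaa at 8 h, Pgm2 and Prkaca between zones, and Ppp1r3e from 8 h to 24 h in each zone. Other scalings moved the median of all genes by -0.0169 to 0.0207 on the log2 scale. Counts were low for Ppp1r3g before 24 h, at most 13 per library, and for Gyg throughout, at 62 to 166. The part of depth in the errors of these genes was not tested.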

Other observations

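Gckr, a gene of the list for glucose 6-phosphate supply and release, was listed at 0 to 2.09 CPM over the 18 libraries. All 3 periportal fed libraries were at 0, and the pericentral fed libraries were at 0, 2.09 and 1.21 CPM. Its level in these estimated counts was too low to follow across the states. How transcripts were summed to genes and the annotation are not given in the sources used here, so a level of 0 need not mean that the transcript was absent.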
